A study of Mus musculus with 60 samples.

Results

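The comparison of lights-on against lights-off in the arthritic colon rested on 10 libraries, 5 from mice with collagen-induced arthritis (CIA) killed at ZT0 and 5 from mice with CIA killed at ZT12, of 60 libraries in the series. They were chosen by their labels, treatment CIA and time ZT0 or ZT12, and no library of a naïve mouse entered. ZT is zeitgeber time, the number of hours since the lights came on, so that ZT0 is the start of the light phase and ZT12 the start of the dark phase of a 12 h light and 12 h dark cycle. All 10 mice were male DBA/1, immunised on day 0 at the age of 9 to 10 weeks with bovine type II collagen in Complete Freund's adjuvant and boosted intraperitoneally on day 21, both at ZT6. The colon was taken 7 days after arthritis appeared, as a 5 mm piece of mid-colon that holds the epithelium, the lamina propria and the muscle wall together. Each library is 1 sample from that whole wall. As every mouse carried CIA, the comparison is of time within the disease and holds no measure of the disease itself. In this model the joint disease follows an immunisation against foreign collagen, and mice fed ad libitum eat mostly in the dark, so that ZT0 follows the feeding phase and ZT12 the resting phase.

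In mammalian cells the clock is a loop of transcription. The activators BMAL1 (encoded by Arntl) and CLOCK, or its relative NPAS2, bind E-boxes and switch on the Period and Cryptochrome genes, whose proteins then block the activators. A second loop joins them, in which REV-ERB proteins (Nr1d1, Nr1d2) repress and ROR proteins activate Arntl and Nfil3 through a shared response element. Output passes through the PAR bZIP factors DBP, TEF and HLF, which bind D-boxes and compete there with NFIL3. In the gut, cell division in the crypts, ion and nutrient absorption and defence against bacteria are known to vary over the day.

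Promoter windows of 300 bases, from 250 before to 50 after an annotated start, show where the letters of these elements lie in genes with large time-of-day differences here. The sequences are RefSeq's on GRCm38.p6, printed 5′ to 3′ on the gene's own strand, with matches in capitals. The motifs searched on both strands were the E-box CACGTG, the D-box TTANGTAA, the cyclic AMP response element TGACGTCA, the heat shock element and the ROR/REV-ERB element. Ciart, higher at ZT12, is shown for its 3 E-boxes, Per1 for its single E-box, Per3 for its 2 D-boxes, Arntl, higher at ZT0, for its ROR/REV-ERB element just after the start, and Cry1 because it holds an E-box and yet was higher at ZT0.
Ciart, chr3:95882179-95882478, minus strand: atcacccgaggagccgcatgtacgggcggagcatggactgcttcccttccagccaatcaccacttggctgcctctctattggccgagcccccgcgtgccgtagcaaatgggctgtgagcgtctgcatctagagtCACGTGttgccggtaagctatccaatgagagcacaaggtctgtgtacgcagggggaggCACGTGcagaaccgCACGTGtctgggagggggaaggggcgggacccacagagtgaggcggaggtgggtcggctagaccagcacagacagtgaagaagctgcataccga
Per1, chr11:69098699-69098998, plus strand: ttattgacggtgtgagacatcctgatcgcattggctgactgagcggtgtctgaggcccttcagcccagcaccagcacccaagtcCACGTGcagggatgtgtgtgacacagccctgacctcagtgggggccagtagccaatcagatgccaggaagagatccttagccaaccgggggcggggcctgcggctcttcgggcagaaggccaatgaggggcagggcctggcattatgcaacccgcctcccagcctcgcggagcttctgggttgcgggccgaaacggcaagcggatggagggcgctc
Per3, chr4:151044616-151044915, minus strand: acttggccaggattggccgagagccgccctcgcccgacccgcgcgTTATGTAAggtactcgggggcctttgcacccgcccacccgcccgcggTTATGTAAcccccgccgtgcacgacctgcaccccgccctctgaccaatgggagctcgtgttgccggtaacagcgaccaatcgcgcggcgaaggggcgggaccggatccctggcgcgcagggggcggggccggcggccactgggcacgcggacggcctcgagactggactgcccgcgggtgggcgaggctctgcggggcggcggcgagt
Arntl, chr7:113207261-113207560, plus strand: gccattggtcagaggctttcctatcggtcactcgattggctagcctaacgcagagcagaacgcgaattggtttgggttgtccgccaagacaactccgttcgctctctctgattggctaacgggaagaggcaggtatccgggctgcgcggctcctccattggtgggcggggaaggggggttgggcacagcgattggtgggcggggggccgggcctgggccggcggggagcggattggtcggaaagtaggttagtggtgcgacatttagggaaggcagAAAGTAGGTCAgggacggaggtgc
Cry1, chr10:85185005-85185304, minus strand: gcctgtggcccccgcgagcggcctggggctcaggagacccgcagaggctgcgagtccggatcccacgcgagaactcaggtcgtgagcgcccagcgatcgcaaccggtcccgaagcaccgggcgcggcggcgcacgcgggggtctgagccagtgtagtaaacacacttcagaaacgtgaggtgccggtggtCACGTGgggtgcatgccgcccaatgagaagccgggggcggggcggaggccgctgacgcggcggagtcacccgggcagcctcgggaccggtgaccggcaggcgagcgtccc
The E-box was found in 6 of 21 windows of the core clock genes, against 7.15% of the 32851 windows in the table. The D-box was found in 1 of the 21 windows against 2.32% of all, and the ROR/REV-ERB element in 1 against 0.384%. Of the other motifs, the cyclic AMP response element was in 1 window, that of Hlf, against 1.79% of all, and the heat shock element in 0 against 0.603%. Of the 11 windows of the 12 genes with the largest differences in favour of ZT0, which include Arntl, 0 held an E-box. A match describes letters in a window only, and several genes had more than 1 window or none in the table.

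Total counts ranged from 31382664 to 57492350 per library, and 16865 of 27179 genes passed the filter on low counts. Levels are CPM, counts relative to a library's total after edgeR's TMM scaling, and values of 5 libraries are listed from replicate 1 to replicate 5. The libraries did not separate first by time. The first principal component of log2 CPM held 48.2% of the variance and placed CIA ZT0 replicate 3 among the ZT12 libraries and CIA ZT12 replicate 2 among the ZT0 libraries. The same crossing was seen in Hoxb13, a homeobox gene that marks the posterior end of the hindgut in the embryo and adult: 27.2, 45.3, 373, 49.02 and 33.6 CPM at ZT0 and 376, 57.8, 242, 305 and 414 CPM at ZT12. Hoxd13, its relative with the same posterior expression, was 0.687, 7.82, 87.7, 3.85 and 2.04 CPM at ZT0 and 29.7, 9.37, 37.4, 57.9 and 61.7 CPM at ZT12. Hoxa13 was 12.7 to 18.4 CPM at ZT0 and 18.5 to 22.2 CPM at ZT12. Thus 4 of 5 ZT0 libraries and 1 of 5 ZT12 libraries were low in Hoxb13 and Hoxd13, and the other 5 libraries were high. The mean log2 CPM of the tested Hox genes of group 13 (Hoxa13, Hoxb13 and Hoxd13) was 2.66, 4.23, 6.32, 3.89 and 3.40 at ZT0 and 5.96, 4.43, 5.85, 6.19 and 6.33 at ZT12. All samples are labelled mid-colon, and where along the colon each piece was cut, and its part in the differences between ZT0 and ZT12, was not tested beyond the fit with this Hox level as a covariate, which was chosen after the values were seen and is given beside the lists and many of the genes.

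Other cell types also differed between libraries. The 16 tested skeletal muscle markers had a mean log2 CPM of 0.86, 1.07, 1.06, 0.99 and 1.05 at ZT0 and 1.01, 4.66, 1.15, 1.58 and 1.25 at ZT12, so that CIA ZT12 replicate 2 alone was high. The 13 B cell markers were at 0.68, 0.48, 3.68, 0.45 and 3.42 at ZT0 and 3.39, 1.22, 3.52, 4.96 and 3.81 at ZT12, low in 3 ZT0 libraries and in CIA ZT12 replicate 2. Smooth muscle markers were at 8.86 to 9.85 at ZT0 and 8.81 to 9.56 at ZT12, and the 15 colonocyte markers at 9.41 to 9.72 and 9.61 to 9.93, so the markers of colon epithelium were high in every library. In Dbp, Per2 and Arntl every library was on the side of its time label, the crossed libraries included.

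**Figure D1:**
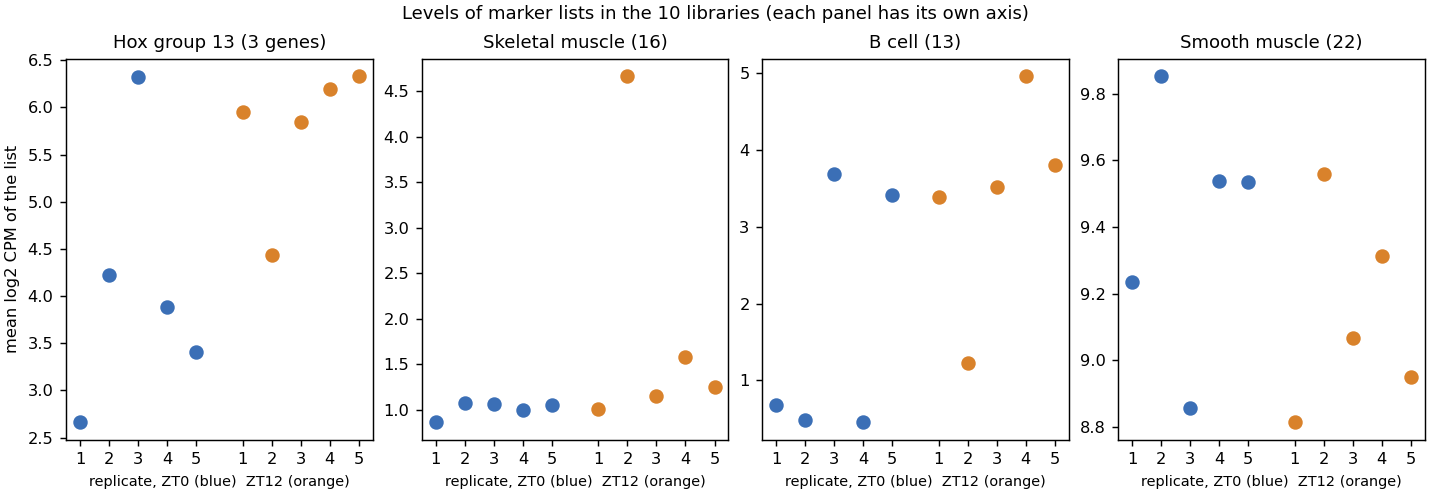
Mean log2 CPM of the tested genes of 4 lists (vertical axes, 1 scale per panel) in each of the 10 libraries (horizontal axis, replicate 1 to 5 of ZT0 in blue and of ZT12 in orange). Replicate 3 of ZT0 reaches 6.32 in the Hox panel among the ZT12 libraries, replicate 2 of ZT12 falls to 4.43, and the same ZT12 library stands alone at 4.66 in the skeletal muscle panel.

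Between ZT0 and ZT12, 1875 genes passed an adjusted p of 0.05, 11.1% of those tested. Of these, 899 were higher at ZT12 (5.33%) and 976 higher at ZT0 (5.79%). These shares are the background for the gene list counts that follow. The median log2 difference, ZT12 minus ZT0, was 0.00 over all genes tested, 0.52 over the genes higher at ZT12 and -0.67 over those higher at ZT0. More than a 2-fold difference was seen for 139 genes higher at ZT12 and 300 higher at ZT0, and more than a 4-fold difference, the limit the study used, for 29 and 38. The groups did not overlap in 1533 genes (9.09%), and 1233 genes (7.31%) were called and did not overlap. With the Hox level as a covariate 602 genes were called, 197 higher at ZT12 and 405 higher at ZT0, and 515 of them were among the 1875. Of those 515, 486 did not overlap between the times.

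Among genes averaging 5 CPM or more and without overlap, clock genes had the largest differences in both directions. All 3 activators were higher at ZT0. Arntl was 65.3, 59.97, 88.9, 67.4 and 73.01 CPM at ZT0 and 8.93, 4.98, 11.02, 8.64 and 9.30 CPM at ZT12, 8.27-fold lower at ZT12 with no overlap (log2 difference -3.05 ± 0.19 SE, edgeR adjusted p = 1.8e-05). Npas2, whose protein can take the place of CLOCK, was 54.5, 35.9, 79.8, 52.2 and 48.9 CPM at ZT0 and 17.3, 11.1, 25.1, 18.7 and 18.6 CPM at ZT12 (log2 difference -1.58 ± 0.23 SE, edgeR adjusted p = 0.0026). In both, CIA ZT12 replicate 2 was the lowest library. Clock itself differed far less, at 60.4 to 85.9 CPM at ZT0 and 56.3 to 63.4 CPM at ZT12 with overlap (log2 difference -0.31 ± 0.09 SE, edgeR adjusted p = 0.0453), and its call was lost without CIA ZT12 replicate 2 (-0.30, adjusted p = 0.0528) and with the Hox covariate (-0.40, adjusted p = 0.0629).

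Of the 5 Period and Cryptochrome genes, 4 were higher at ZT12 and Cry1 was higher at ZT0. Per2 was the most even within the times, 19.7, 20.3, 21.1, 22.02 and 16.7 CPM at ZT0 and 185, 176, 174, 164 and 159.7 CPM at ZT12, 8.599-fold higher at ZT12 (log2 difference 3.10 ± 0.09 SE, edgeR adjusted p = 8.42e-09). Its windows are not in the promoter table. Per3, with the D-boxes shown above, was 13.9, 14.9, 22.6, 12.3 and 13.5 CPM at ZT0 and 124, 88.95, 96.4, 138 and 134 CPM at ZT12 (log2 difference 2.91 ± 0.19 SE, edgeR adjusted p = 1.87e-05). Per1 was 32.1, 74.4, 29.3, 26.6 and 27.7 CPM at ZT0, where replicate 2 was far above the others, and 159.6, 139, 145, 168 and 151 CPM at ZT12 (log2 difference 2.004 ± 0.27 SE, edgeR adjusted p = 0.00158). None of the 3 Period genes overlapped between the times. Cry2 went from 51.3 ± 3.84 CPM at ZT0 to 109 ± 19.4 CPM at ZT12 (mean ± SD, n = 5 each) and did not overlap (log2 difference 1.09 ± 0.11 SE, edgeR adjusted p = 0.000498). Cry1 went the other way, from 50.6 ± 5.43 to 34.05 ± 4.88 CPM, again without overlap (log2 difference -0.57 ± 0.11 SE, edgeR adjusted p = 0.00892). With the Hox covariate Cry1 was no longer called (-0.50, adjusted p = 0.0679).

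In the second loop, the repressors Nr1d1 and Nr1d2 were higher at ZT12 and Nfil3 was higher at ZT0. Nr1d2 was 33.2, 42.7, 15.1, 17.9 and 17.6 CPM at ZT0 and 137, 148, 144, 180.4 and 165 CPM at ZT12, with replicates 1 and 2 the highest at ZT0 (log2 difference 2.61 ± 0.28 SE, edgeR adjusted p = 0.000498). Nr1d1 was 35.2, 53.1, 26.2, 21.1 and 16.9 CPM at ZT0 and 98.7, 84.7, 134, 156 and 115 CPM at ZT12 (log2 difference 1.95 ± 0.29 SE, edgeR adjusted p = 0.00285). The same 2 ZT0 libraries were the highest for both genes, and neither gene overlapped between the times. Nfil3, which competes with the PAR bZIP factors, was 18.6, 16.3, 13.1, 20.4 and 23.6 CPM at ZT0 and 1.62, 3.72, 3.85, 1.15 and 0.795 CPM at ZT12 (log2 difference -3.04 ± 0.41 SE, edgeR adjusted p = 0.00173). Rora was low in every library, 0.495 to 1.31 at ZT0 and 0.278 to 1.28 at ZT12, and was not called (log2 difference -0.60 ± 0.41 SE, edgeR adjusted p = 0.363).

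All 6 output factors were higher at ZT12 and none overlapped. Ciart, which encodes a repressor of CLOCK and BMAL1 and carries the E-boxes shown above, had the largest difference of any clock gene, from 0.768, 0.996, 0.371, 0.532 and 0.592 CPM at ZT0 to 35.1, 27.8, 25.9, 67.7 and 57.9 CPM at ZT12 (log2 difference 6.03 ± 0.38 SE, edgeR adjusted p = 1.77e-05). Dbp was 2.93, 5.27, 3.32, 3.03 and 2.46 CPM at ZT0 and 100.2, 77.5, 68.3, 151 and 135 CPM at ZT12, 31.3-fold higher (log2 difference 4.97 ± 0.29 SE, edgeR adjusted p = 1.19e-05). Tef was 26.6, 33.5, 38.1, 23.7 and 30.1 CPM at ZT0 and 339, 282, 280.5, 388 and 373 CPM at ZT12 (log2 difference 3.45 ± 0.15 SE, edgeR adjusted p = 9.07e-07). Libraries 1, 4 and 5 of ZT12 were the 3 highest for Ciart, Dbp and Tef alike. Hlf, the third PAR bZIP factor, was 8.08, 15.9, 6.02, 11.4 and 13.4 CPM at ZT0 and 36.6, 57.1, 38.4, 38.5 and 39.4 CPM at ZT12, with ZT12 replicate 2 the highest (log2 difference 1.94 ± 0.24 SE, edgeR adjusted p = 0.00117). Bhlhe40 and Bhlhe41 encode the E-box repressors DEC1 and DEC2. Bhlhe40 was 90.5 to 107 CPM at ZT0 and 193 to 232 CPM at ZT12 (log2 difference 1.09 ± 0.07 SE, edgeR adjusted p = 2.4e-05), and Bhlhe41 was 0.647 to 1.32 and 2.43 to 4.66 CPM (log2 difference 1.96 ± 0.26 SE, edgeR adjusted p = 0.00143). In all, 18 of 19 core clock genes were called, and 15 of the 18 remained called in every alternative setting run for them, 22 for each gene but Bhlhe41, with 21, and with Clock and Cry1 among the exceptions.

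**Figure D2:**
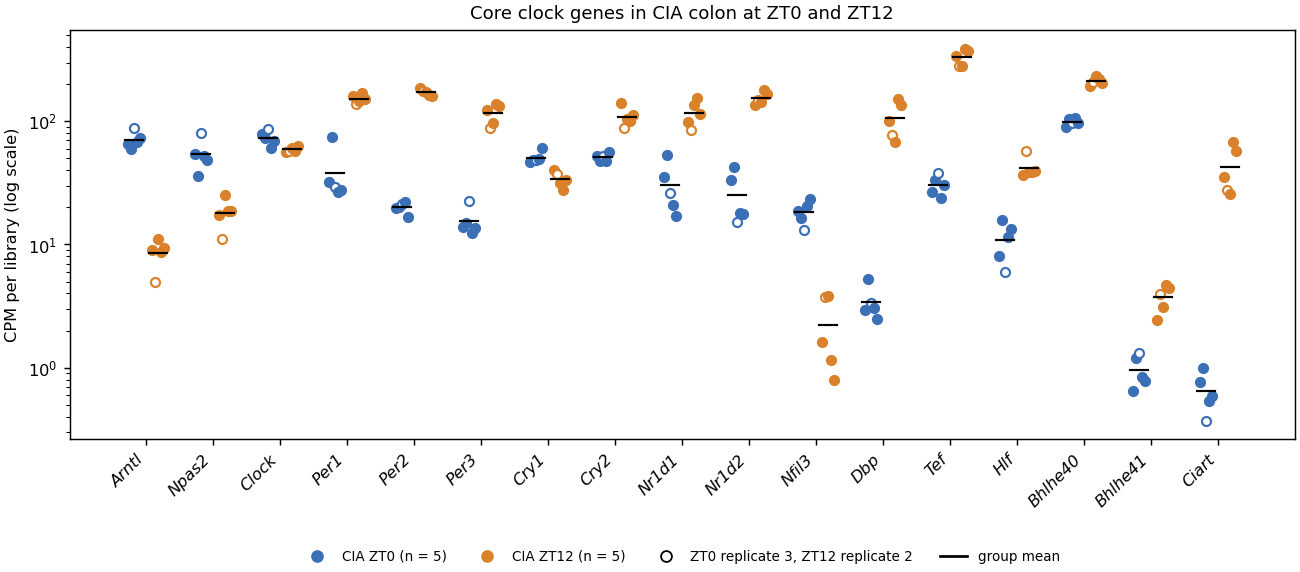
CPM per library on a log axis (vertical) for 17 core clock genes (horizontal), with ZT0 in blue, ZT12 in orange, bars for the group means (n = 5), and the crossed libraries, ZT0 replicate 3 and ZT12 replicate 2, as open circles. The groups are apart in all genes shown but Clock, and in those the open circles lie with their own time.

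Of 11 genes on the list of clock kinases and ligases, 1 was higher at ZT12, Usp2, and 2 were higher at ZT0, Timeless and Tipin. Of all genes, 5.33% and 5.79% were called in those directions. None of these 3 genes encodes a kinase or a ligase, the other members were not called, and the median was 0.02. Usp2, a deubiquitinase that acts on clock proteins, was 20.9, 30.9, 23.6, 28.5 and 32.7 CPM at ZT0 and 109.9, 87.1, 102, 130.1 and 149 CPM at ZT12 (log2 difference 2.08 ± 0.16 SE, edgeR adjusted p = 7.25e-05). Timeless and Tipin, which in mammals protect replication forks, were 7.41 to 15.8 and 13.5 to 17.8 CPM at ZT0 and 3.93 to 7.13 and 7.89 to 13.2 CPM at ZT12 (log2 differences -0.96 and -0.69, edgeR adjusted p = 0.0261 and 0.0169). With the Hox covariate Timeless was called (-1.08, adjusted p = 0.0476) and Tipin was not (-0.62, adjusted p = 0.0881). Over the 22 alternatives Timeless lost its call in 4 and Tipin in 3.

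Outside the clock, the largest differences of called genes that averaged 5 CPM or more and did not overlap fell in genes of mixed function among those higher at ZT12, and mostly in genes of cell division among those higher at ZT0. Upp1, the uridine phosphorylase that breaks uridine down to uracil, was 15.9, 15.9, 46.6, 15.9 and 17.6 CPM at ZT0 and 103, 55.3, 144, 177 and 149 CPM at ZT12 (log2 difference 2.49 ± 0.39 SE, edgeR adjusted p = 0.00335). Nat8f4, of a family of N-acetyltransferases, was 10.4 to 28.8 CPM at ZT0 and 35.9 to 94.8 CPM at ZT12 (log2 difference 2.17 ± 0.32 SE, edgeR adjusted p = 0.00263). In both, ZT0 replicate 3 was the highest at ZT0 and ZT12 replicate 2 the lowest at ZT12, and with the Hox covariate the differences were smaller but still called (1.68, adjusted p = 0.00521 for Upp1 and 1.47, adjusted p = 0.00701 for Nat8f4). Plk3, a stress-responsive polo-like kinase, was 13.6, 21.9, 26.8, 14.1 and 13.3 CPM at ZT0 and 74.98, 48.9, 101.1, 74.3 and 64.2 CPM at ZT12 (log2 difference 2.02 ± 0.24 SE, edgeR adjusted p = 0.000945). Fam43a was 7.38 to 15.4 CPM at ZT0 and 28.6 to 48.5 CPM at ZT12 (log2 difference 1.98 ± 0.21 SE, edgeR adjusted p = 0.000498).

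At ZT0 the genes higher by this rule were Arntl, Nfil3, Spon2, Cldn8 and 8 genes of the cell cycle. Spon2, which encodes a secreted matrix protein that binds bacteria, was 107, 92.2, 85.6, 164 and 148 CPM at ZT0 and 10.7, 31.9, 21.2, 15.2 and 12.2 CPM at ZT12, 6.54-fold higher at ZT0 (log2 difference -2.71 ± 0.31 SE, edgeR adjusted p = 0.00075). Cldn8, the claudin of the distal colon known for restricting sodium passage, was 97.7, 63.4, 167, 62.8 and 59.2 CPM at ZT0 and 20.7, 16.5, 19.9, 20.0005 and 24.5 CPM at ZT12, with ZT0 replicate 3 the highest and no overlap (log2 difference -2.15 ± 0.28 SE, edgeR adjusted p = 0.00138). Its difference was larger with the Hox covariate (-2.56, adjusted p = 0.00044). E2f2, an E2F factor of S phase genes, was 44.5, 48.9, 79.3, 67.3 and 74.6 CPM at ZT0 and 9.39, 9.596, 12.9, 8.06 and 6.34 CPM at ZT12 (log2 difference -2.76 ± 0.22 SE, edgeR adjusted p = 7.25e-05). E2f8, an atypical E2F that represses those genes, was 9.45 to 16.99 and 0.815 to 4.16 CPM (log2 difference -2.35 ± 0.37 SE, edgeR adjusted p = 0.00362). The other 6 were Esco2 (-2.47), Pclaf (-2.20), Iqgap3 (-2.15), Rrm2 (-2.09), Ncaph (-2.001) and Clspn (-1.94), given as log2 differences, which act in cohesion, replication, cytokinesis, nucleotide supply, chromosome condensation and the fork checkpoint. All 24 genes of this rule remained called in each of the 22 alternatives. They were picked from these same libraries as called, without overlap and largest in difference, so this is no independent support.

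Cell division genes were higher at ZT0 almost throughout. Of 39 mitosis genes tested, 38 were higher at ZT0 and 1 higher at ZT12, with a median log2 difference of -1.39 against 0.00 over all genes and background shares of 5.79% and 5.33%. Ect2, which starts the contractile ring, was 15.2, 14.03, 15.04, 17.2 and 11.6 CPM at ZT0 and 4.10, 5.02, 5.15, 4.58 and 5.01 CPM at ZT12 (log2 difference -1.61 ± 0.12 SE, edgeR adjusted p = 6.93e-05). Kif23, a kinesin of the midzone, was 15.3, 14.4, 15.8, 16.2 and 14.9 CPM at ZT0 and 5.58, 6.33, 6.75, 7.33 and 5.50 CPM at ZT12 (log2 difference -1.28 ± 0.10 SE, edgeR adjusted p = 8.2e-05). These values were tight within each time and far apart between them, with the crossed libraries among their own groups. Nusap1, a spindle protein, was 16.4 to 22.4 CPM at ZT0 and 4.79 to 8.71 CPM at ZT12 (log2 difference -1.54 ± 0.16 SE, edgeR adjusted p = 0.000498). The proliferation marker Mki67 had a log2 difference of -1.34 and Top2a one of -1.92. Wee1, the kinase that holds back entry into mitosis and a clock-controlled gene in mouse liver, was the exception, at 14.3 to 20.4 CPM at ZT0 and 24.7 to 31.9 CPM at ZT12 (log2 difference 0.74 ± 0.11 SE, edgeR adjusted p = 0.00242). The Hox covariate left 37 mitosis genes higher at ZT0 and 1 higher at ZT12. In whole tissue, fewer dividing cells and less of these RNAs per cell cannot be told apart.

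Of 46 DNA replication genes, 34 were higher at ZT0, 0 were higher at ZT12 and all 46 had a negative difference, with a median of -0.84. Of all genes, 5.79% and 5.33% were called in those directions. Gins2, of the replicative helicase, was 5.68, 3.98, 7.22, 6.10 and 4.93 CPM at ZT0 and 1.86, 2.86, 2.16, 1.68 and 1.79 CPM at ZT12 (log2 difference -1.43 ± 0.21 SE, edgeR adjusted p = 0.00234). Mcm7, a subunit of the same helicase, was 43.1, 33.6, 58.4, 52.1 and 39.5 CPM at ZT0 and 20.1, 24.5, 25.1, 20.6 and 17.03 CPM at ZT12 (log2 difference -1.08 ± 0.16 SE, edgeR adjusted p = 0.00257). The ZT0 libraries were all above the ZT12 libraries for both. Pcna, the sliding clamp, had a log2 difference of -0.69, and Orc2 of the origin recognition complex one of -0.06, not called. Under the same covariate 21 members were still called, all higher at ZT0, beside 405 of all 16865 genes called higher at ZT0 in that fit. Of 25 genes of purine and pyrimidine synthesis, 6 were higher at ZT0 and 0 higher at ZT12, beside the same 5.79% and 5.33% of all genes. Among the 6 were the mitochondrial folate enzymes Mthfd2, 10.1 to 18.6 CPM at ZT0 and 3.54 to 9.89 CPM at ZT12 (log2 difference -1.22 ± 0.27 SE, edgeR adjusted p = 0.0169), and Shmt2 (-0.33). With the covariate the list held 3 calls, and neither Mthfd2 (-0.76, adjusted p = 0.105) nor Shmt2 (-0.32, adjusted p = 0.0836) was among them.

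**Figure D3:**
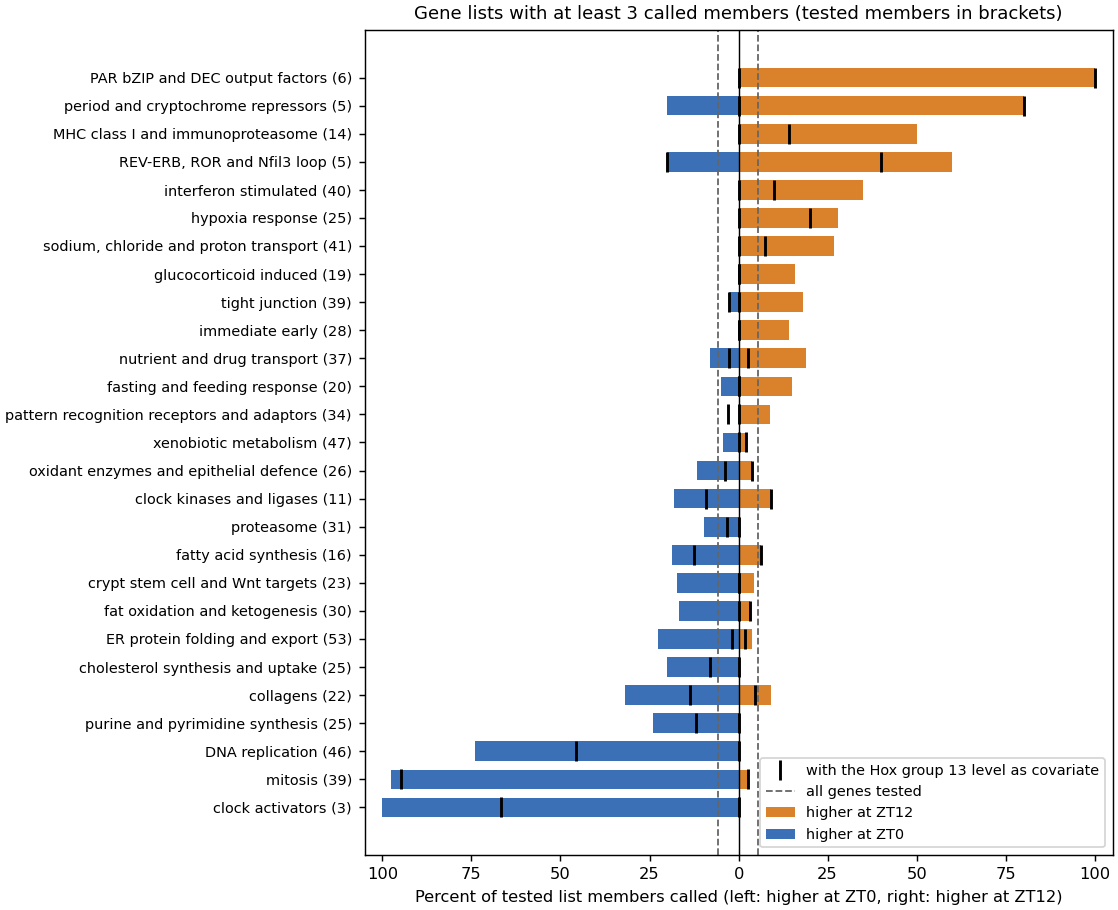
Percent of the tested members of each list that were called (horizontal axis), to the left in blue for higher at ZT0 and to the right in orange for higher at ZT12, with black ticks for the shares under the Hox covariate and dashed lines at the shares of all genes, 5.79% and 5.33%. Calls in the mitosis list number 39 without and 38 with the covariate, in DNA replication 34 and 21, in salt transport 11 and 3, in tight junctions 8 and 1 and in collagens 9 and 4. Over all 16865 genes, calls higher at ZT12 number 899 without and 197 with the covariate, and those higher at ZT0 number 976 and 405. The dashed lines are from the fit without the covariate.

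Salt transport genes were higher at ZT12 where they were called, in 11 of 41 members, beside 5.33% of all genes. The list had 0 members higher at ZT0 and a median of 0.25. Atp1b1, a beta subunit of sodium and potassium pumps, was 1282, 1309, 1371, 1083 and 1271 CPM at ZT0 and 2357, 1644, 2297, 2223 and 2797 CPM at ZT12 (log2 difference 0.84 ± 0.13 SE, edgeR adjusted p = 0.00358). It did not overlap, and ZT12 replicate 2 was the lowest ZT12 library. Kcne3, a subunit of the basolateral potassium channel, was 109 to 147 CPM at ZT0 and 180.2 to 273 CPM at ZT12 (log2 difference 0.77 ± 0.13 SE, edgeR adjusted p = 0.0052), and was not called under the covariate (0.56, adjusted p = 0.0606). Slc26a3, the chloride and bicarbonate exchanger, was 752, 838, 1368, 572 and 803 CPM at ZT0 and 2088, 1194, 2187, 2043 and 2026 CPM at ZT12, so that ZT0 replicate 3 lay above ZT12 replicate 2 (log2 difference 1.14 ± 0.23 SE, edgeR adjusted p = 0.0123). The water channel Aqp8 overlapped likewise, 541 to 1016 CPM at ZT0 and 697 to 2094 CPM at ZT12 (log2 difference 1.04 ± 0.28 SE, edgeR adjusted p = 0.0368). Under the covariate 3 members of the list were called, Atp1b1 (0.66, adjusted p = 0.046) among them, while Slc26a3 (0.67, adjusted p = 0.0779) and Aqp8 (0.54, adjusted p = 0.466) were not. Without CIA ZT12 replicate 2, 16 members were higher at ZT12 and 3 higher at ZT0. In that fit 1528 and 1610 of the 16946 genes tested were called in those directions.

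Of 37 nutrient and drug transporters, 7 were higher at ZT12 and 3 higher at ZT0, beside 5.33% and 5.79% of all genes. The fructose transporter Slc2a5 was 3.03, 1.65, 3.01, 1.16 and 3.08 CPM at ZT0 and 11.03, 4.03, 4.50, 12.9 and 10.9 CPM at ZT12 (log2 difference 1.85 ± 0.39 SE, edgeR adjusted p = 0.0143). Slc6a19, the transporter of neutral amino acids, was 0.743 to 1.82 and 1.55 to 4.03 CPM (log2 difference 1.43 ± 0.32 SE, edgeR adjusted p = 0.0184), while the glutamine transporter Slc38a1 was higher at ZT0, 112 to 178 against 68.7 to 121 CPM (log2 difference -0.89 ± 0.18 SE, edgeR adjusted p = 0.0113). The covariate left 1 call in each direction, none of them among these 3. Of 39 tight junction genes, 7 were higher at ZT12 and Cldn8 alone was higher at ZT0, beside the same shares of all genes. Mpp5, which encodes the scaffold PALS1, was 53.5 to 69.1 CPM at ZT0 and 70.9 to 96.2 CPM at ZT12 (log2 difference 0.48 ± 0.09 SE, edgeR adjusted p = 0.00981). Myh14, a nonmuscle myosin of the junctional belt, was 605 to 796 and 797 to 1175 CPM (log2 difference 0.58 ± 0.12 SE, edgeR adjusted p = 0.0149). Under the Hox covariate Cldn8 was the single call left in the list.

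**Figure D4:**
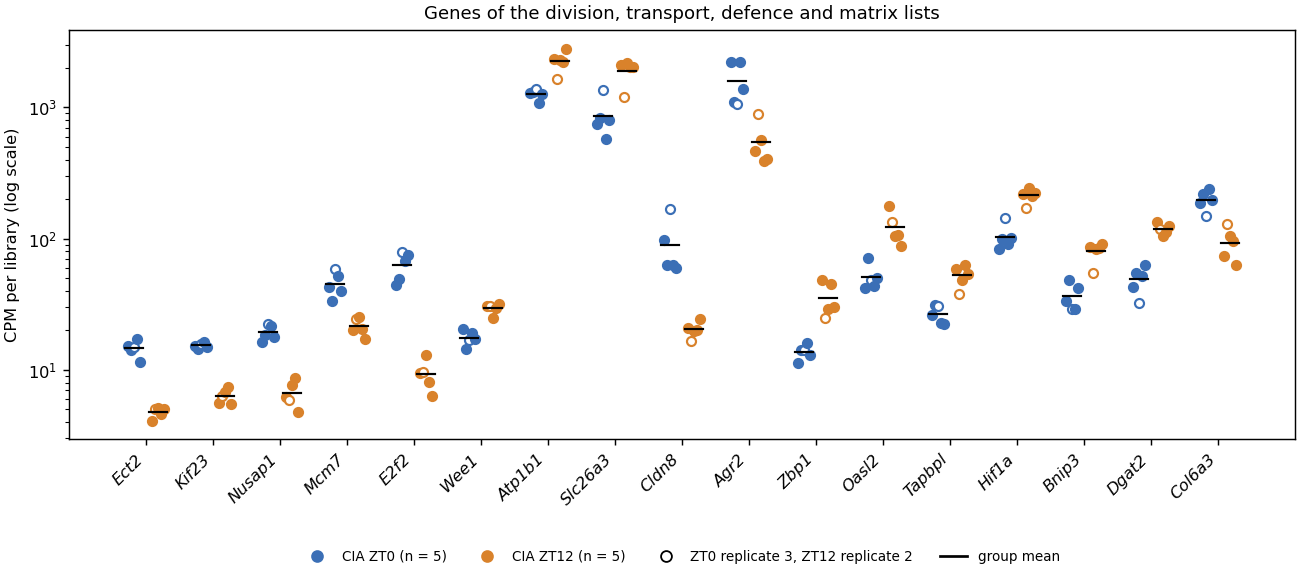
CPM per library on a log axis (vertical) for 17 genes of the division, transport, junction, defence, hypoxia, lipid and matrix lists (horizontal), drawn as for the clock genes, with the crossed libraries as open circles and bars for the means (n = 5). Ect2 falls from 11.6 or more to 5.15 or less, while in Slc26a3 the open circles of the 2 times change places.

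Interferon-stimulated genes were higher at ZT12 in 14 of 40 members and higher at ZT0 in 0, with a median of 0.45. Of all genes, 5.33% and 5.79% were called in those directions. Zbp1, a sensor of nucleic acids in the Z form, was 11.3, 14.2, 14.1, 15.95 and 13.01 CPM at ZT0 and 48.7, 24.8, 28.9, 44.96 and 30.3 CPM at ZT12 (log2 difference 1.37 ± 0.19 SE, edgeR adjusted p = 0.00176). Oasl2, of the oligoadenylate synthetase family, was 41.7, 71.7, 48.1, 43.8 and 49.8 CPM at ZT0 and 179, 133, 105.2, 107 and 87.98 CPM at ZT12 (log2 difference 1.26 ± 0.20 SE, edgeR adjusted p = 0.00362), and Ifit3, an inhibitor of viral translation, 5.35 to 11.1 and 14.9 to 25.003 CPM (log2 difference 1.21 ± 0.19 SE, edgeR adjusted p = 0.00362). None of the 3 overlapped. Not every member moved with them: Irf7 had a log2 difference of -0.90 and Mx2 one of -0.39, neither called. The list held 4 calls with the Hox covariate, which included all 3 genes given with values (adjusted p = 0.0271, 0.0247 and 0.0135).

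Of 14 genes of MHC class I presentation, 7 were higher at ZT12 and 0 higher at ZT0, beside 5.33% and 5.79% of all genes. Tapbpl, a peptide editor for class I, was 26.1, 30.96, 30.5, 22.7 and 22.5 CPM at ZT0 and 58.2, 38.2, 48.5, 63.4 and 54.2 CPM at ZT12 (log2 difference 0.98 ± 0.14 SE, edgeR adjusted p = 0.00259). The immunoproteasome subunit Psmb10 was 59.8 to 77.5 and 87.6 to 119 CPM (log2 difference 0.61 ± 0.10 SE, edgeR adjusted p = 0.00369), and Tapbp, which encodes tapasin, 229 to 267 and 312 to 336 CPM (log2 difference 0.39 ± 0.07 SE, edgeR adjusted p = 0.00504). The heavy chains H2-K1 (0.14) and H2-D1 (0.12) were not called. Under the Hox covariate 2 members were called, Tapbpl (0.73, adjusted p = 0.0294) and Psmb10 (0.44, adjusted p = 0.048). All 12 class II genes had positive differences, with a median of 0.67, and 0 were called by edgeR, with 2 at an unadjusted p under 0.05 and 1 called by DESeq2. The B cell markers, which express class II as well, were higher at ZT12 in the median by 1.26 with 0 of 13 called by edgeR, 2 at an unadjusted p under 0.05 and 1 by DESeq2, and ranged from 0.45 to 3.68 in mean log2 CPM at ZT0 and from 1.22 to 4.96 at ZT12. Their part in the class II values was not tested.

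The antibacterial lectins Reg3b and Reg3g, secreted by epithelial cells, had large differences in favour of ZT0, which rested on few libraries. Reg3b was 90.9, 6.99, 0, 8.20 and 108 CPM at ZT0 and 0.477, 1.46, 0.871, 0 and 0.159 CPM at ZT12 (log2 difference -6.14 ± 1.49 SE, edgeR adjusted p = 0.0256). Reg3g was 25.9, 5.05, 0.598, 11.04 and 56.7 CPM at ZT0 and 0.858, 4.14, 2.79, 1.202 and 0.596 CPM at ZT12 (log2 difference -3.36 ± 0.97 SE, edgeR adjusted p = 0.0474). High values stood in ZT0 replicates 1 and 5, and ZT0 replicate 3 was at the level of ZT12. With the Hox covariate neither was called (-0.73, adjusted p = 0.827 for Reg3b and 0.04, adjusted p = 0.988 for Reg3g). Nox1, the superoxide-producing oxidase of colon epithelium, was higher at ZT0, 4.08 to 9.70 against 2.08 to 3.62 CPM (log2 difference -1.23 ± 0.25 SE, edgeR adjusted p = 0.0113). Duoxa2, the maturation factor of DUOX2, was higher at ZT12, 6.48 to 16.9 against 11.8 to 40.9 CPM (log2 difference 1.22 ± 0.32 SE, edgeR adjusted p = 0.0357), with overlap. With the covariate Nox1 was called (-1.27, adjusted p = 0.0436) and Duoxa2 was not (1.43, adjusted p = 0.0813).

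Of 25 hypoxia genes, 7 were higher at ZT12 and 0 higher at ZT0, beside 5.33% and 5.79% of all genes. With the Hox covariate 5 were called. Hif1a, the oxygen-regulated subunit of HIF-1, was 83.6, 98.5, 144, 90.2 and 100.6 CPM at ZT0 and 221, 171, 244, 212 and 223 CPM at ZT12, with replicate 3 the highest at ZT0 and replicate 2 the lowest at ZT12 (log2 difference 1.05 ± 0.15 SE, edgeR adjusted p = 0.00206). Bnip3, a mitophagy receptor, was 29.2 to 48.4 and 54.7 to 90.6 CPM (log2 difference 1.14 ± 0.17 SE, edgeR adjusted p = 0.00292), and Mxi1, an antagonist of MYC, 80.04 to 104 and 112 to 126 CPM (log2 difference 0.37 ± 0.08 SE, edgeR adjusted p = 0.0131). Glycolytic members such as Ldha (0.10) and Pgk1 (0.26) were not called. Of 28 immediate early genes, 4 were higher at ZT12, among them Zfp36 (log2 difference 0.61 ± 0.14 SE, edgeR adjusted p = 0.02) and Maff (log2 difference 0.63 ± 0.15 SE, edgeR adjusted p = 0.0225), and of 19 glucocorticoid-induced genes 3 were higher at ZT12, among them the metallothionein Mt1, 77.3, 124, 88.5, 68.1 and 112 CPM at ZT0 and 319, 113, 144, 579 and 597 CPM at ZT12 (log2 difference 1.90 ± 0.44 SE, edgeR adjusted p = 0.0215). Both counts stand beside 5.33% of all genes called higher at ZT12. Neither list held a call higher at ZT0, and under the Hox covariate both held 0 calls.

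In each list of lipid genes more members were called higher at ZT0 than higher at ZT12. Of 25 cholesterol synthesis and uptake genes, 5 were higher at ZT0 and 0 higher at ZT12, with a median of -0.32. Of all genes, 5.79% and 5.33% were called in those directions. Mvk, mevalonate kinase, was 27.4, 30.3, 36.8, 38.3 and 30.5 CPM at ZT0 and 26.5, 26.3, 22.6, 19.5 and 21.7 CPM at ZT12 (log2 difference -0.48 ± 0.12 SE, edgeR adjusted p = 0.0263), not called with the Hox covariate (-0.54, adjusted p = 0.0673). Of 16 fatty acid synthesis genes, 3 were higher at ZT0 and 1 higher at ZT12, with a median of -0.21, beside the same shares of all genes. The 1 higher at ZT12 was Dgat2, which makes triglyceride, without overlap, 42.7, 54.8, 32.3, 51.9 and 63.2 CPM at ZT0 and 134, 119, 105.2, 113 and 125 CPM at ZT12 (log2 difference 1.28 ± 0.16 SE, edgeR adjusted p = 0.000989). Its difference was larger under the covariate (1.52, adjusted p = 0.00253). Of 30 genes of fat oxidation and ketogenesis, 1 was higher at ZT12 and 5 higher at ZT0, beside the same shares of all genes. Plin2, which coats lipid droplets, was the former, 90.2 to 142 against 133 to 316 CPM (log2 difference 1.08 ± 0.21 SE, edgeR adjusted p = 0.0094). Angptl4, a secreted inhibitor of lipoprotein lipase, was 14.8, 7.02, 5.45, 3.38 and 4.55 CPM at ZT0 and 1.64, 1.02, 2.90, 1.85 and 1.03 CPM at ZT12 (log2 difference -2.06 ± 0.43 SE, edgeR adjusted p = 0.0138). Pdk4, the kinase that closes the entry of pyruvate to mitochondria, was 71.7, 43.6, 8.71, 44.8 and 82.5 CPM at ZT0 and 11.9, 16.7, 16.2, 15.1 and 12.3 CPM at ZT12 (log2 difference -1.80 ± 0.44 SE, edgeR adjusted p = 0.0263). Its replicate 3 at ZT0 was below every ZT12 library, and it had no call under the Hox covariate (-0.26, adjusted p = 0.747). Neither had Angptl4 (-1.66, adjusted p = 0.102) or Plin2 (0.69, adjusted p = 0.123), and the list then held 0 calls higher at ZT0.

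Of 53 genes of protein folding and export in the endoplasmic reticulum, 12 were higher at ZT0 and 2 higher at ZT12. Of all genes, 5.79% and 5.33% were called in those directions. Rpn2, a subunit of the oligosaccharyltransferase, was 142 to 196 CPM at ZT0 and 87.7 to 124 CPM at ZT12 (log2 difference -0.68 ± 0.12 SE, edgeR adjusted p = 0.00585), and the disulfide isomerases P4hb and Pdia6 had log2 differences of -0.61 and -0.78. Herpud1, which acts in degradation from that organelle, was higher at ZT12, 93.1 to 147 against 176 to 235 CPM (log2 difference 0.94 ± 0.14 SE, edgeR adjusted p = 0.0024), as was Dnajb9 (0.46). Under the Hox covariate the list held 1 call in each direction, Rpn2 and Herpud1. Of 30 goblet cell genes, 2 were higher at ZT0, Agr2 and Klk1, a share near the 5.79% of all genes. Agr2, the isomerase needed to fold mucin, was 2222, 1109, 1056, 2205 and 1379.9 CPM at ZT0 and 464, 887, 569, 390.4 and 407 CPM at ZT12 (log2 difference -1.55 ± 0.29 SE, edgeR adjusted p = 0.00799), and kept its call with the Hox covariate (-0.99, adjusted p = 0.0312), while Klk1 did not (-0.62, adjusted p = 0.102). Heat shock genes, which follow body temperature, held 2 calls of 26, Hspa8 (log2 difference 0.55 ± 0.14 SE, edgeR adjusted p = 0.0323) and Chordc1 (log2 difference 0.56 ± 0.13 SE, edgeR adjusted p = 0.0205), both higher at ZT12, a share near the 5.33% of all genes. Under the covariate Hspa8 was called (0.71, adjusted p = 0.0431) and Chordc1 was not (0.59, adjusted p = 0.0777).

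Of 22 collagen genes, 7 were higher at ZT0 and 2 higher at ZT12, with a median of -0.50. Of all genes, 5.79% and 5.33% were called in those directions. Col5a3 was 60.7, 70.4, 45.2, 71.1 and 65.7 CPM at ZT0 and 26.4, 34.8, 27.6, 28.1 and 21.4 CPM at ZT12 (log2 difference -1.18 ± 0.15 SE, edgeR adjusted p = 0.00113). Col6a3 was 149 to 239 and 63.2 to 129 CPM (log2 difference -1.09 ± 0.19 SE, edgeR adjusted p = 0.00571), and Col1a1, of the main fibrillar collagen, 204 to 376 and 122 to 181 CPM (log2 difference -0.87 ± 0.16 SE, edgeR adjusted p = 0.00842). The basement membrane chains Col4a6 (log2 difference 1.26 ± 0.21 SE, edgeR adjusted p = 0.00525) and Col4a5 (log2 difference 1.02 ± 0.23 SE, edgeR adjusted p = 0.0184) were the 2 higher at ZT12. Fibroblast markers were at 5.63 to 6.13 in mean log2 CPM at ZT0 and 5.28 to 5.99 at ZT12, and smooth muscle markers had 19 of 22 differences below 0 with 1 called. The part of these cell types in the collagen values was not tested. With the Hox covariate 3 collagens were called higher at ZT0 and 1 higher at ZT12. Of 23 crypt stem cell and Wnt target genes, 4 were higher at ZT0 and 1 higher at ZT12, beside the same shares of all genes. None of the 23 was called under the covariate.

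The called genes with the highest mean CPM, a scale that is not per length, and a difference of at least 1.5-fold included, higher at ZT12, Prdx6, Atp1b1, Slc26a3, Selenop and Aqp8, and, higher at ZT0, Cyp2c55, Agr2, Col3a1, 2610528A11Rik, Klk1 and Flnc. Prdx6, a peroxiredoxin, was 1583, 2040.5, 4194, 1589 and 1983 CPM at ZT0 and 5373, 3292, 5724, 6678 and 7386 CPM at ZT12 (log2 difference 1.32 ± 0.30 SE, edgeR adjusted p = 0.0189). Its ZT0 replicate 3 lay within the ZT12 range, and under the Hox covariate the difference was smaller (0.66, adjusted p = 0.0492). Cyp2c55, a cytochrome P450 of colon epithelium, was 2049 to 3823 CPM at ZT0 and 1174 to 2088 CPM at ZT12 (log2 difference -0.85 ± 0.22 SE, edgeR adjusted p = 0.0345), and its call was lost under the covariate (-0.40, adjusted p = 0.269). The transcript 2610528A11Rik was steady within each time, 516, 502, 471, 508 and 565 CPM at ZT0 and 323, 314, 311, 314 and 345 CPM at ZT12 (log2 difference -0.67 ± 0.07 SE, edgeR adjusted p = 0.000498), and kept its call under the covariate (-0.62, adjusted p = 0.00385).

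Most skeletal muscle transcripts were far higher in CIA ZT12 replicate 2 than in any other library. Of 26 genes on the list, 23 had their highest count there, 20 of them over 3 times that of any other library, and 16 of the 26 passed the filter on low counts. Atp2a1, the calcium pump of fast muscle fibres, was 0.445, 0.801, 0.928, 0.970 and 0.782 CPM at ZT0 and 0.357, 108, 0.889, 0.601 and 0.537 CPM at ZT12. Acta1, skeletal actin, was 3.64, 2.50, 3.88, 4.19 and 4.41 CPM at ZT0 and 2.72, 85.5, 4.21, 6.38 and 4.49 CPM at ZT12, and Tnnt3, a fast troponin, 0.889, 0.607, 1.03, 0.751 and 0.663 and 1.10, 51.5, 0.799, 2.23 and 1.59 CPM. In all 3, a single library carried the ZT12 mean. Ttn, which encodes titin, was 0.607 to 1.23 CPM at ZT0 and 49.7 CPM in that library. Among genes that did not pass the filter, Myh4, the fastest myosin, had 5014 counts there and 0 to 10 in the other 9 libraries, Pvalb, the calcium buffer of fast fibres, 1710 against 0 to 14, and Xirp2 386 against 0 in each. Actn2, Myh7 and Eno3 did not have their highest count in that library, and Ckm, Myh2 and Mybpc2 exceeded the others there by less. Eno3 was 33.3, 65.9, 344, 42.01 and 51.1 CPM at ZT0 and 384, 74.3, 303, 508 and 588 CPM at ZT12, crossed as Hoxb13 was.

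What rests on that library was as follows. The fitted differences of Atp2a1 (log2 difference 4.82 ± 1.65 SE, edgeR adjusted p = 0.0852), Tnnt3 (log2 difference 3.85 ± 1.19 SE, edgeR adjusted p = 0.06) and Acta1 (log2 difference 2.47 ± 0.92 SE, edgeR adjusted p = 0.107) were not called, and without the library they were -0.38, 0.85 and 0.26. In the main comparison Tcap, a titin partner, was the 1 skeletal muscle gene called. Tcap was 0.445, 0.388, 0.351, 0.344 and 0.474 CPM at ZT0 and 1.36, 13.3, 0.799, 1.78 and 1.29 CPM at ZT12 (log2 difference 3.20 ± 0.78 SE, edgeR adjusted p = 0.0261). It remained called without the library at a smaller difference (1.69, adjusted p = 0.00368). In the fit of all 30 CIA libraries, 14 members of the list were called higher at ZT12. That fit was not repeated without the library, so how many of the 14 rest on it was not tested. The median difference over the 16 tested members was 2.34 with the library in the fit, and this median was not recomputed without it. Without CIA ZT12 replicate 2 the comparison called 3138 genes, which kept 1820 of the 1875, lost 55 and gained 1318. Of the 146 named and called genes, which include Hoxa13, added after its values were seen, 2 were lost, Clock and Cdh19. Over the 22 alternatives Clock lost its call in 15 and Cdh19 in 13. Leaving out any other library lost 6 to 51 of the 146. That library was also the crossed ZT12 library of the Hox axis, and whether the muscle RNA or the crossing moved the count cannot be told apart.

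The number of calls depended on the crossed libraries. Without CIA ZT0 replicate 3 it was 2773, and without both crossed libraries 5103, of which 1814 were among the 1875. In that last fit the high and low Hox libraries fell wholly into different times, so that section and time cannot be told apart in it. Leaving out any of the other 8 libraries gave 865 to 1734 calls. With the Hox covariate the 602 calls were 32.7% higher at ZT12, against 47.9% in the main comparison, and 75 of 146 named calls were lost. Of the 1875 main calls, 481 had an estimate that shrank by over 1.5 times. The Hox level went largely with time, so a lost call does not by itself show a smaller difference. Clock, for example, lost its call while its log2 difference went from -0.31 to -0.40. Of the 18 called core clock genes, 15 were called under each of these settings, as was each of the 24 genes with the largest differences. Those 24 include some of the core clock genes and were picked for their size and lack of overlap in these same libraries.

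**Figure D5:**
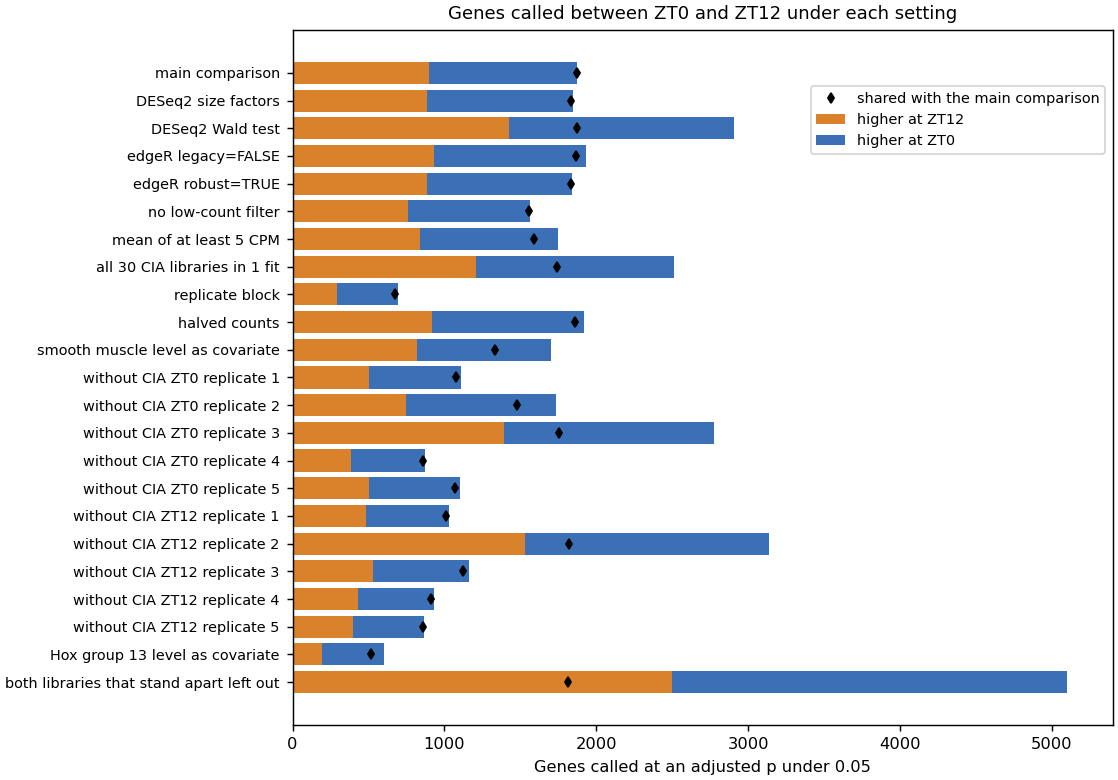
Genes called at an adjusted p under 0.05 (horizontal axis) under each setting (vertical axis), orange for higher at ZT12 and blue for higher at ZT0, with diamonds for the calls shared with the main comparison. Calls rise from 1875 to 5103 when both crossed libraries are left out and fall to 602 when the Hox level enters the fit.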

How the data were processed

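RNA was sequenced from mid-colon of the 10 mice. According to the labels and the paper's methods, the authors demultiplexed reads with bcl2fastq 2.17.1.14, trimmed them with Trimmomatic 0.36, aligned them to mm10 (GRCm38) with STAR 2.5.3 and counted them per gene with Rsubread. The deposited values are the authors' raw counts for 27179 Entrez genes. Even numbers made up 74.6% of the counts between 1 and 20 and 50.5% of high counts, so halved counts were an alternative. Symbols came from RefSeq (GRCm38.p6); 1904 identifiers with 0.526% of the counts had none.

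In R 4.3.3, edgeR 4.0.16 gave the main test: filterByExpr with the 2 times as groups (minimum count 10, minimum total 15), TMM scaling, the quasi-likelihood F test and Benjamini-Hochberg adjustment over 16865 genes. SE is the log2 difference over the square root of F. P-values rest on the spread between libraries of the same time. Each mouse gave a single piece, so that spread does not separate the mouse from the place of the cut. DESeq2 1.42.0 was an alternative. A list level is the mean log2 CPM with a prior count of 2. On simulated data for this comparison over 16865 genes, 40 of 100 genes changed 1.5-fold and 85 of 100 changed 2-fold were found, with 5 false calls. The changed genes were drawn from those averaging 5 CPM or more. Each gene was simulated on its own, without the Hox axis that the libraries share, so these numbers do not measure recovery or false calls in the real libraries.

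Genes were named by rule: all core clock genes, the 12 called genes per direction with the largest difference, averaging 5 CPM or more, without overlap, up to 3 called members per list and direction with the smallest adjusted p, 6 skeletal muscle genes by their CPM in CIA ZT12 replicate 2, and 6 abundant genes per direction at 1.5-fold or more. The Hox genes and single list members given by their log2 difference alone, or by counts, were chosen after their values were seen. Some genes that these rules select are not reported here. The members and the 58 gene lists were chosen with earlier results of these data known.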

Additional observations from a re-analysis of the deposited data

Results flagged for a closer look

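A library was picked out where its gap to the nearest library of its time exceeded Dixon's 95% critical share of the range over the 5 libraries. 256 sets of 5 values were examined, 26 were picked out, and chance picks about 1 in 20. CIA ZT0 replicate 2 stood above the other 4 of its time in the CPM of Per1 (74.4, others 26.6 to 32.1) and Oasl2 (71.7, others 41.7 to 49.8). CIA ZT0 replicate 3 stood above the other 4 of its time in the mean log2 CPM of mast cell markers (-0.33, others -1.15 to -0.96). CIA ZT0 replicate 3 stood below the other 4 of its time in the mean log2 CPM of tuft cell markers (1.84, others 2.43 to 2.64). CIA ZT0 replicate 3 stood above the other 4 of its time in the CPM of Per3 (22.6, others 12.3 to 14.9), Upp1 (46.6, others 15.9 to 17.6), Hif1a (144, others 83.6 to 100.6), Eno3 (344, others 33.3 to 65.9), Prdx6 (4194, others 1583 to 2040.5), Hoxb13 (373, others 27.2 to 49.02) and Hoxd13 (87.7, others 0.687 to 7.82). CIA ZT0 replicate 3 stood below the other 4 of its time in the CPM of Slc38a1 (112, others 162 to 178). CIA ZT0 replicate 5 stood above the other 4 of its time in the CPM of Cry1 (60.1, others 46.8 to 49.02). CIA ZT12 replicate 1 stood below the other 4 of its time in the CPM of Fam43a (28.6, others 44.6 to 48.5). CIA ZT12 replicate 2 stood above the other 4 of its time in the mean log2 CPM of skeletal muscle markers (4.66, others 1.01 to 1.58). CIA ZT12 replicate 2 stood below the other 4 of its time in the mean log2 CPM of pancreatic acinar markers (2.37, others 3.18 to 3.50) and Hox group 13 (4.43, others 5.85 to 6.33). CIA ZT12 replicate 2 stood above the other 4 of its time in the CPM of Hlf (57.1, others 36.6 to 39.4), Tcap (13.3, others 0.799 to 1.78), Atp2a1 (108, others 0.357 to 0.889), Acta1 (85.5, others 2.72 to 6.38), Tnnt3 (51.5, others 0.799 to 2.23) and Ttn (49.7, others 0.490 to 1.45). CIA ZT12 replicate 2 stood below the other 4 of its time in the CPM of Bnip3 (54.7, others 83.9 to 90.6) and Slc26a3 (1194, others 2026 to 2187). CIA ZT12 replicate 3 stood below the other 4 of its time in the CPM of Rrp9 (14.3, others 15.9 to 16.5). The lists of mast cell and pancreatic acinar markers rest on 6 and 2 genes. Skeletal muscle genes were named by their CPM in CIA ZT12 replicate 2, and the Hox genes after their values were seen, so their place here follows from that choice.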

How the results depend on the processing

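Counts of calls, lists and named genes were recomputed under 22 alternatives (21 for the 11 named genes that the filter at a mean of 5 CPM drops) and motif shares under none. Of the alternatives, 2 (the Hox covariate, and leaving out both crossed libraries) were chosen after seeing the data. Calls between the times lay between 865 and 3138 when each library was left out, higher at ZT12 between 385 and 1528, higher at ZT0 between 469 and 1610, and past 2-fold between 289 and 799, against 1875, 899, 976 and 439. DESeq2's Wald test gave 2908 calls, 1426 higher at ZT12 and 1482 higher at ZT0. The Hox covariate gave 602, 197 and 405, with 262 past 2-fold, and the filter at a mean of 5 CPM left 253 past 2-fold. Leaving out both crossed libraries gave 5103, 2499 and 2604, with 1353 past 2-fold. The cause of these shifts was not tested. Correlations of same-numbered deviations ran from -0.28 to 0.31. They gave no sign that the replicate numbers pair the samples, but so few values cannot exclude a pairing. A fit with the number as a replicate block gave 695 calls, 291 higher at ZT12 and 404 higher at ZT0.

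Of 146 named calls, 61 held under every alternative run for them. The sign of a difference turned for Rora (0.0387), Reg3g (0.0385), Ckm (0.46) and Hoxd13 (-0.27) with the Hox covariate, for Atp2a1 without CIA ZT12 replicate 2 (-0.38, and up to 5.13 with another library left out), for Atp2a1 (-0.31) and Ttn (-0.0544) without both crossed libraries, and for Ckm with the smooth muscle covariate (0.0782); of these only Reg3g was called. Scaling by DESeq2 size factors gave 1847 calls, and all 30 CIA libraries in 1 fit gave 2515. The 2515 include 14 skeletal muscle genes higher at ZT12, against 1 in the main comparison. Genes near 1 CPM rest on few counts per library, and 5 mice per time miss many 1.5-fold differences.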

Other observations

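Of 11 marker genes of enteric glia tested, 3 were higher at ZT0, 1 was higher at ZT12 and 7 were not called, with a median log2 difference of -0.13, beside 5.79% and 5.33% of all genes called higher at ZT0 and ZT12. Fabp7, a fatty acid binding protein of glia, was 0.869, 1.07, 1.24, 0.751 and 1.87 CPM at ZT0 and 0.143, 0.167, 0.181, 0.100 and 0.0795 CPM at ZT12 (log2 difference -3.08 ± 0.35 SE, edgeR adjusted p = 0.00071) and remained called with the Hox covariate (-3.03, adjusted p = 0.00351). Gfap, the glial filament, was 14.6, 15.1, 13.9, 18.3 and 24.5 CPM at ZT0 and 3.79, 11.8, 6.62, 6.66 and 4.21 CPM at ZT12 (log2 difference -1.38 ± 0.29 SE, edgeR adjusted p = 0.0151), and Kcna1, a potassium channel, 15.2 to 23.6 against 6.39 to 12.5 CPM (log2 difference -1.02 ± 0.19 SE, edgeR adjusted p = 0.00861); both lost their calls with the covariate. Cdh19 went the other way, 6.97 to 17.9 CPM at ZT0 and 12.8 to 27.9 CPM at ZT12 (log2 difference 0.89 ± 0.25 SE, edgeR adjusted p = 0.047). Its call was lost in 13 of 22 alternatives, the fit without CIA ZT12 replicate 2 among them.

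Among 22 chemokine genes tested, 2 were called, a share near the 11.1% of all genes. Cxcl16, which draws cells with the receptor CXCR6, was higher at ZT12, 27.8, 28.9, 29.1, 29.5 and 33.2 CPM at ZT0 and 40.6, 46.2, 54.7, 46.2 and 40.01 CPM at ZT12 with no overlap (log2 difference 0.62 ± 0.09 SE, edgeR adjusted p = 0.00293). Cxcl12, the ligand of CXCR4, was higher at ZT0, 66.2 to 94.9 against 44.8 to 67.6 CPM, with overlap (log2 difference -0.63 ± 0.14 SE, edgeR adjusted p = 0.0163). Cxcl16 remained called with the Hox covariate (0.65, adjusted p = 0.0171) and Cxcl12 did not (-0.33, adjusted p = 0.126). Of 46 ribosome biogenesis genes, 2 were called, 1 in each direction, beside 11.1% of all genes. Rrp9 was 11.7, 11.05, 10.3, 10.7 and 10.9 CPM at ZT0 and 16.5, 15.9, 14.3, 15.9 and 15.9 CPM at ZT12 (log2 difference 0.52 ± 0.08 SE, edgeR adjusted p = 0.00292), a small difference that held under every alternative. Utp20 was higher at ZT0 with overlap (log2 difference -0.40 ± 0.10 SE, edgeR adjusted p = 0.0322) and lost its call with the Hox covariate (-0.31, adjusted p = 0.194).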
